A study of Nicotiana benthamiana with 12 samples.

Results

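Galactinol synthase genes were followed in leaf RNA of Nicotiana benthamiana, a tobacco relative common in plant laboratories, after a short heat treatment. The genes were taken as the rows of the deposited gene table whose homology text names galactinol synthase, in any case. This gave 4 of 40763 genes. The text calls Niben101Scf06412g03018.1 and Niben101Scf00687g00006.1 galactinol synthase 1, after an Arabidopsis protein, and Niben101Scf26203g00003.1 and Niben101Scf02446g00026.1 galactinol synthase 2, after a tomato protein. The table gives identifiers without coordinates, and sequences are not analysed here.

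Galactinol synthase joins galactose from UDP-galactose to myo-inositol. The product, galactinol, donates its galactose to sucrose, which yields raffinose and, in a further step, stachyose. These sugars accumulate in many plants under heat, cold and drought and serve as compatible solutes and in phloem transport. In Arabidopsis, heat shock factors are known activators of galactinol synthase genes.

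Leaves came from plants grown in soil for 5 weeks, which were left at 23 °C (mock) or moved for 1 h to 37 °C (heat). From both treatments all RNA of the leaf (total) and the RNA bound to several ribosomes at once (polysome) were sequenced, with 3 libraries in each of the 4 groups. How polysomes were isolated is not given in the labels. The labels name no transgene or mutation in any group. The submitters call the libraries biological replicates. Libraries are named here by the numbers in their titles, which are 5 to 7 for the mock total and heat polysome groups and 2 to 4 for the others. Every comparison of heat with mock in a fraction, or of polysome with total RNA in a treatment, thus sets one range of numbers against the other. What the numbers stand for is not given, and a shift between the ranges cannot be told apart from these comparisons. The same holds for the difference between the heat effects of the fractions.

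Total counts were 10724854 to 14485118 per library. A count of 1 is the lowest value in every library, and a count of 1 equals 0.0572 to 0.0641 CPM in total RNA and 0.0764 to 0.124 CPM in polysome RNA, so levels this low stand for no read above the lowest count. CPM is the count scaled to library size with TMM factors. It is not divided by transcript length, so levels are compared between samples and not between genes. In bulk RNA, fewer cells of a type and less RNA per cell cannot be told apart. Mock total libraries 6 and 7 stood apart in transcripts of the Rubisco large chain, a plastid gene, of which 22 rows summed to 3280 and 4390 CPM there and to 94.9 to 867 CPM in the other libraries, so the fit of heat against mock in total RNA was repeated without them. That fit leaves 1 mock total library and takes its spread from the other groups. The leaf origin was checked on 89 genes of chlorophyll a-b binding proteins and the Rubisco small chain, which summed to 139000 to 149000 CPM in mock and 117000 to 126000 CPM in heat total RNA. In polysome RNA they summed to 209000 to 290000 CPM in mock and 301000 to 419000 CPM in heat. In CPM this sum was thus lower after heat in one fraction and higher in the other, without overlap. TMM factors were 0.562 to 0.6836 in heat polysome and 0.7906 to 0.9626 in mock polysome libraries, and a lower factor raises CPM. The sums were not compared without these factors.

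Heat was compared with mock in each RNA fraction, to ask which galactinol synthase transcripts changed within 1 h and whether ribosomes carried them. Both genes of the galactinol synthase 1 type rose in both fractions. Niben101Scf06412g03018.1 rose from near the lowest count to levels that were 12.3 times higher in total RNA and 32.5 times higher in polysome RNA. Niben101Scf00687g00006.1, which was counted more often at 23 °C, rose 5.69-fold and 4.28-fold. Reads of both genes of the galactinol synthase 2 type were too few for the main test.

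The counts of Niben101Scf06412g03018.1 were 3, 2 and 9 in mock total libraries 5, 6 and 7 and 73, 55 and 55 in heat total libraries 2, 3 and 4. They were 4, 1 and 2 in mock polysome libraries 2, 3 and 4 and 60, 74 and 55 in heat polysome libraries 5, 6 and 7. In both fractions every heated library lay above every mock library. The level went from 0.295 ± 0.247 to 3.67 ± 0.443 CPM in total RNA (mean ± SD, n = 3). In polysome RNA it went from 0.227 ± 0.152 to 7.35 ± 0.483 CPM. The log2 change was 3.62 ± 0.41 (SE) in total RNA (edgeR's quasi-likelihood test, Benjamini-Hochberg adjusted p = 1.9e-06). In polysome RNA it was 5.02 ± 0.45 (adjusted p = 1.5e-07). Of the mock reads in total RNA, 11 lay above the lowest count, and the ratio of heat to mock reads above it was 15.9 (95% counting interval 8.7 to 32.5). In mock polysome RNA 4 reads lay above it, and the ratio was 59.0 (22.7 to 219). The size of the rise in polysome RNA is therefore known less closely than its direction. Without mock total libraries 6 and 7 the log2 change in total RNA was 4.23 (adjusted p = 5.1e-05), and without library 7 alone it was 4.51 (adjusted p = 5.3e-07). In polysome RNA it was 5.65 without mock polysome library 2 (adjusted p = 2.7e-07) and 5.77 when 1 was taken from each count (adjusted p = 5e-07).

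The counts of Niben101Scf00687g00006.1 were 17, 18 and 7 in mock total libraries 5, 6 and 7 and 74, 85 and 87 in heat total libraries 2, 3 and 4. They were 4, 10 and 10 in mock polysome libraries 2, 3 and 4 and 21, 39 and 23 in heat polysome libraries 5, 6 and 7. Here too the heated libraries lay above the mock libraries of the same fraction without overlap. Its level went from 0.861 ± 0.358 to 4.97 ± 0.642 CPM in total RNA and from 0.755 ± 0.369 to 3.19 ± 0.817 CPM in polysome RNA. It rose by 2.51 ± 0.34 on the log2 scale in total RNA (edgeR's adjusted p = 1.6e-05) and by 2.1 ± 0.4 in polysome RNA (adjusted p = 0.00033). Without mock total libraries 6 and 7 the change in total RNA was 2.23 (adjusted p = 0.002).

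Over all 34325 genes tested, 25.7% rose in total RNA and 28.1% in polysome RNA at the same threshold, and groups were higher after heat without overlap in 32.2% and 29.2%. The median log2 change of all genes was -0.08 for total and -0.06 for polysome RNA. The mean heat effect over both fractions was 4.32 ± 0.31 for Niben101Scf06412g03018.1 (adjusted p = 3.9e-09) and 2.3 ± 0.26 for Niben101Scf00687g00006.1 (adjusted p = 1.2e-06), in a comparison in which 31.3% of genes rose.

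**Figure D1:**
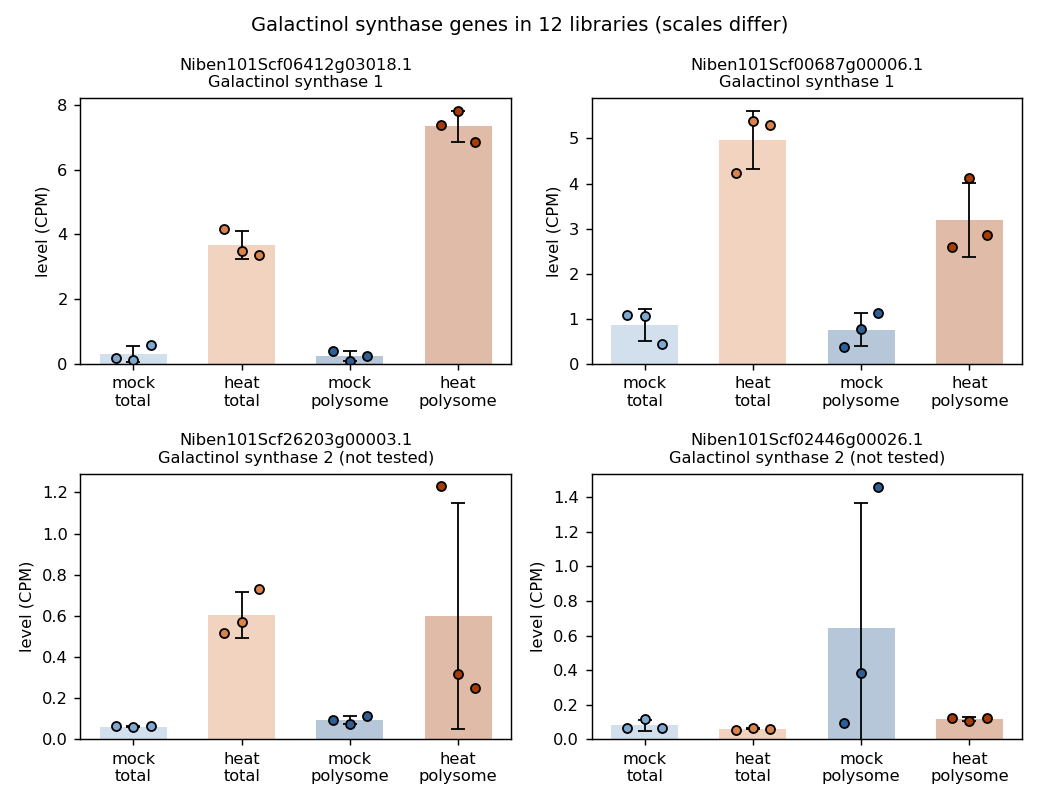
Level of each galactinol synthase gene in CPM, 1 point per library, with bars for the mean and whiskers for the SD of 3 libraries; the vertical scales differ. Both genes of the galactinol synthase 1 type were higher in the heat groups of both fractions, with means of 3.67 and 4.97 CPM in heat total RNA. Of the galactinol synthase 2 type, Niben101Scf26203g00003.1 was at the lowest count in all mock libraries and above it in all heated libraries. Niben101Scf02446g00026.1 was highest in mock polysome library 4, at 1.46 CPM.

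Of the galactinol synthase 2 type, Niben101Scf26203g00003.1 was at the lowest count in all 6 mock libraries. Its counts were 9, 9 and 12 in heat total libraries 2, 3 and 4 and 10, 3 and 2 in heat polysome libraries 5, 6 and 7. All 6 heated libraries thus held reads above the lowest count, 27 in total RNA and 12 in polysome RNA, and 9 of the 12 came from library 5. Set against 3 counts over the mock group, it was at least 8.77-fold higher in heat total RNA and at least 5.08-fold higher in heat polysome RNA. These bounds cover counting error only. When no filter on low counts was applied, it passed in total RNA (adjusted p = 0.00039) and in polysome RNA (adjusted p = 0.0049). In those fits 24.2% and 24.7% of 40763 genes rose. The call in polysome RNA ended without heat polysome library 5 (adjusted p = 0.19).

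Niben101Scf02446g00026.1 had reads mainly in mock polysome RNA. Its counts were 1, 5 and 13 in mock polysome libraries 2, 3 and 4 and 1, 2 and 1 in mock total libraries 5, 6 and 7. All 6 heated libraries were at the lowest count, as was mock polysome library 2, while mock polysome libraries 3 and 4 lay above it. Against 3 counts over the heated group it was at least 4.2-fold lower in heat polysome RNA than in mock. Without a filter the fall in polysome RNA passed (adjusted p = 0.029), where 23.4% of genes fell, but not without mock polysome library 4 (adjusted p = 0.38) or without heat polysome library 5, 6 or 7 (adjusted p = 0.076, 0.084 and 0.07). In total RNA both groups were at or under 3 reads above the lowest count, so no fold is given. Without mock total libraries 6 and 7 the filter let all 4 genes be tested, and in polysome RNA 3 were called higher and 1 lower, where 27.3% of genes rose and 26.7% fell.

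The levels of all 4 genes were summed in each library, because reads of similar copies could have been split between them. The sum was 1.4, 1.35 and 1.15 CPM in mock total libraries 5, 6 and 7 and 8.98, 9.5 and 9.44 CPM in heat total libraries 2, 3 and 4. It was 0.951, 1.3 and 2.91 CPM in mock polysome libraries 2, 3 and 4 and 11.3, 12.4 and 10.1 CPM in heat polysome libraries 5, 6 and 7. Heated libraries lay above the mock libraries of their fraction, and mock polysome library 4 was the highest of the mock libraries. The log2 ratio of the group means was 2.84 for total and 2.71 for polysome RNA, a difference of -0.13 between the fractions. Without mock polysome library 4 the polysome value was 3.32 and the difference turned to 0.48. Without mock total libraries 6 and 7 the value in total RNA was 2.74. These values are a description, with no test.

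Polysome RNA was next compared with total RNA within each treatment, to ask how far ribosomes carried each transcript. Both fractions were scaled on their own composition, so a change is relative to the other transcripts of a fraction. At 37 °C, Niben101Scf06412g03018.1 was 2.0 times higher in CPM in polysome RNA than in total RNA, and the libraries did not overlap. Its unscaled counts were alike, with sums of 189 in heat polysome and 183 in heat total libraries. The difference thus rests on the TMM factors, 0.562 to 0.6836 in heat polysome and 1.223 to 1.256 in heat total libraries. The log2 difference of this gene was 1.0 ± 0.3 (adjusted p = 0.0093), where 30.8% of all genes were higher in polysome RNA and 35.7% were higher without overlap. Niben101Scf00687g00006.1 lay on the other side, with a log2 difference of -0.63 ± 0.32 that did not pass (adjusted p = 0.099). Its heat polysome libraries were all below its heat total libraries, as for 33.3% of genes, and the approximate 95% interval of the fold, from the SE, was 0.42 to 0.994. When the 6 heated libraries were fitted alone, this difference passed (log2 difference -0.7, adjusted p = 0.015), in a fit where 36.3% of genes were lower and 34.6% higher in polysome RNA.

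At 23 °C neither gene passed the test between the fractions, and their libraries overlapped. The log2 differences were -0.41 ± 0.65 for Niben101Scf06412g03018.1 (adjusted p = 0.62) and -0.22 ± 0.43 for Niben101Scf00687g00006.1 (adjusted p = 0.69), in a comparison where 54.2% of genes passed in either direction. The approximate 95% intervals of the fold were 0.311 to 1.83 and 0.478 to 1.55, which include folds near those at 37 °C for Niben101Scf00687g00006.1. For Niben101Scf02446g00026.1 the ratio of polysome to total reads above the lowest count was 23.8 (95% counting interval 3.7 to 998) at 23 °C, on 16 reads against 1. Its call without a filter (adjusted p = 0.0055, where 23.4% of genes were higher) ended without mock polysome library 4 (adjusted p = 0.15). Niben101Scf26203g00003.1 had a ratio of 0.861 (0.398 to 1.76) at 37 °C. Without a filter its log2 difference went from -0.09 to -1.11 without heat polysome library 5 (adjusted p = 0.89 and 0.14).

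Whether heat changed the share on ribosomes was tested as the difference between the heat effect in polysome RNA and that in total RNA. It was 1.41 ± 0.72 for Niben101Scf06412g03018.1 (adjusted p = 0.19; unadjusted p = 0.07) and -0.41 ± 0.54 for Niben101Scf00687g00006.1 (adjusted p = 0.65; unadjusted p = 0.46). Neither passed, whereas 18.6% of all genes did in either direction. The approximate 95% interval of the first, as a fold, was 0.993 to 7.07, so at this depth a difference of severalfold was not distinguishable from none. Single mock libraries moved it, to 0.52 without mock total library 7 (adjusted p = 0.75) and to 1.99 without mock polysome library 2 (adjusted p = 0.1), and over the alternatives it ran from 0.52 to 1.99 (adjusted p 0.1 to 0.75).

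**Figure D2:**
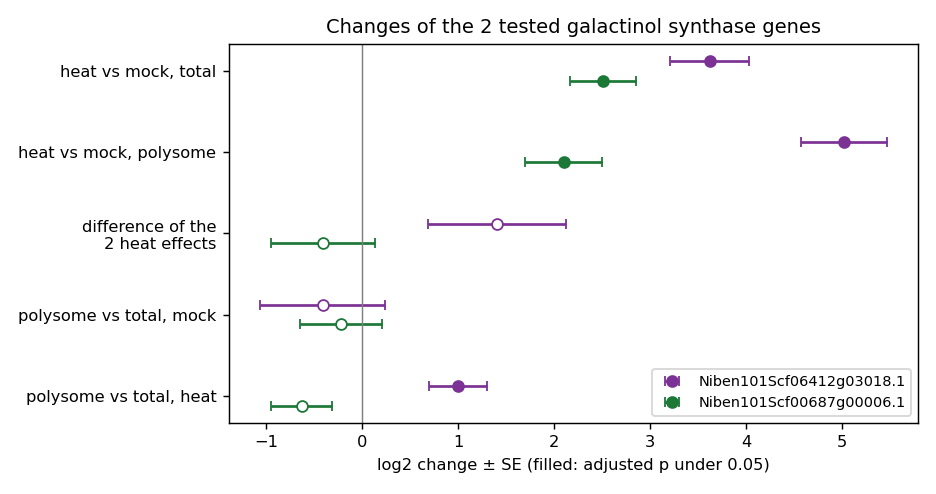
Log2 changes of both tested galactinol synthase genes in 5 comparisons, with whiskers for the SE; filled points had an adjusted p under 0.05. Both genes rose with heat in both fractions, and at 37 °C they lay on opposite sides of 0 for polysome against total RNA, at 1.0 and -0.63.

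The 2 genes of the galactinol synthase 1 type were then set against each other within each library, where library size and scaling cancel. The ratio of counts of Niben101Scf06412g03018.1 to Niben101Scf00687g00006.1 was 0.986, 0.647 and 0.632 in heat total libraries 2, 3 and 4. It was 2.86, 1.9 and 2.39 in heat polysome libraries 5, 6 and 7. The polysome libraries all lay above the total RNA libraries. The mean log2 ratio was 1.23 ± 0.3 for heat polysome libraries and -0.44 ± 0.36 for heat total libraries (SD, n = 3), a difference of 1.67. An exact two-sided permutation test gave p = 0.1, the smallest that 3 libraries against 3 allow, and 0.2 adjusted over 4 comparisons.

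In mock libraries the ratio scattered, from 0.111 to 1.29 in total RNA and from 0.1 to 1.0 in polysome RNA, on counts as low as 1. Mock total library 7 and mock polysome library 2 were the high ones. The ratio was higher after heat in polysome RNA, by 3.11 on the log2 scale and without overlap (exact two-sided permutation p = 0.1, adjusted 0.2). In total RNA it overlapped, with a difference of 1.33 (exact p = 0.4, adjusted 0.533), and between the fractions at 23 °C the difference was -0.11 (exact p = 0.9, adjusted 0.9). Single libraries moved these differences, which ran from 0.63 without mock total library 6 to 2.4 without mock total library 7 in total RNA. In polysome RNA they ran from 2.39 without mock polysome library 3 to 4.05 without mock polysome library 2, and between the fractions at 23 °C from -1.05 without mock polysome library 2 to 0.95 without mock total library 7. As a share of the summed level, Niben101Scf06412g03018.1 held 63.2 to 67.9% in heat polysome libraries and 35.5 to 46.5% in heat total libraries. By these levels the groups of Niben101Scf06412g03018.1 ran from heat polysome to heat total RNA and then to both mock groups, whose difference did not pass. Those of Niben101Scf00687g00006.1 ran from heat total to heat polysome RNA and then to both mock groups, and neither its heat groups nor its mock groups passed as different between the fractions.

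**Figure D3:**
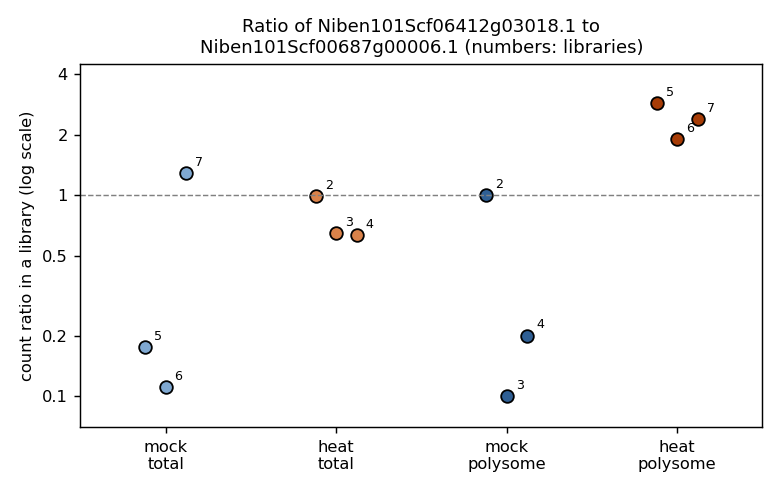
Ratio of the counts of Niben101Scf06412g03018.1 to those of Niben101Scf00687g00006.1 in each library, on a log scale, with the title number beside each point and a dashed line at equal counts. The heat polysome libraries lay between 1.9 and 2.86, above the 0.632 to 0.986 of heat total RNA, and the mock libraries scattered.

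Genes around galactinol were described by lists matched on the annotation text. Beside their counts stand the shares of all tested genes, of which 25.7% rose and 28.3% fell in total RNA and 28.1% rose and 28% fell in polysome RNA. The inositol-3-phosphate synthase gene Niben101Scf16254g00008.1, whose enzyme makes the precursor of myo-inositol, went from 20 ± 3.21 to 728 ± 9.64 CPM in total RNA. It rose by 5.18 ± 0.21 on the log2 scale (adjusted p = 1.4e-11). In polysome RNA it went from 39.1 ± 11.2 to 380 ± 10.5 CPM and rose by 3.28 ± 0.2 (adjusted p = 1.2e-09). The rise was smaller in polysome RNA, with a difference of -1.9 ± 0.26 between the heat effects (adjusted p = 0.0004), where 8.42% of all genes had a called difference in this direction. The difference for Niben101Scf06412g03018.1 pointed the other way and did not pass.

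Of 9 tested genes for inositol synthesis, 4 rose and 1 fell in total RNA and 3 rose and 0 fell in polysome RNA, with median log2 changes of 0.3 and 0.09. The gene that fell was inositol monophosphatase 3 (Niben101Scf00303g00002.1), which frees myo-inositol from its phosphate, with a log2 change of -0.9 ± 0.27 (adjusted p = 0.011). This call ended without mock total libraries 6 and 7 (-0.48, adjusted p = 0.22). A gene with the text of a bacterial histidinol-phosphate phosphatase that the list also matched (Niben101Scf04861g00024.1) had a log2 change of -0.62 ± 0.27 in polysome RNA that did not pass (adjusted p = 0.064). Of 8 tested genes of inositol oxygenases, which break myo-inositol down, and inositol transporters, 6 rose and 1 fell in total RNA and 6 rose and 2 fell in polysome RNA. Most that rose have consecutive identifiers, Niben101Scf00885g09009.1 to Niben101Scf00885g09012.1. Their log2 changes were alike, 1.162 to 1.574 in total RNA and 1.375 to 1.947 in polysome RNA, and whether they share reads was not tested. The inositol transporter 4 homolog Niben101Scf01339g06013.1 rose by 2.14 ± 0.2 in total RNA (adjusted p = 1.8e-07) and by 1.29 ± 0.19 in polysome RNA (adjusted p = 3.2e-05), and its homolog Niben101Scf18096g00002.1 fell by 1.06 ± 0.25 in polysome RNA (adjusted p = 0.0022). An inositol oxygenase 1 gene (Niben101Scf30621g00001.1) fell, with 1 read above the lowest count in heat total RNA against 284 in mock, a ratio of 0.00343 (95% counting interval 8.66e-05 to 0.0193; adjusted p = 7.7e-06).

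Of 20 tested genes for UDP-galactose supply, 5 rose and 3 fell in total RNA and 6 rose and 6 fell in polysome RNA, with medians of 0.07 and 0.15. A UDP-glucose 4-epimerase gene (Niben101Scf00271g06002.1), whose enzyme makes UDP-galactose, rose by 2.42 ± 0.28 (adjusted p = 2.4e-06) and 2.59 ± 0.32 (adjusted p = 4.4e-06) in the 2 fractions. The epimerase gene Niben101Scf06529g06010.1 fell by 2.31 ± 0.39 in total RNA (adjusted p = 0.00014). Another epimerase gene (Niben101Scf00698g00008.1) held 1 read above the lowest count in heat polysome RNA against 30 in mock, a ratio of 0.0423 (95% counting interval 0.00104 to 0.254), while its log2 change in total RNA was 0.02 ± 0.51 (adjusted p = 0.98). The UDP-glucose pyrophosphorylase gene with the highest CPM of this list (Niben101Scf01556g01007.1) rose by 1.16 ± 0.14 (adjusted p = 4.3e-06) and 1.08 ± 0.14 (adjusted p = 9e-06).

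Sucrose accepts the galactose of galactinol. Of 12 tested genes of sucrose synthases and sucrose-phosphate synthases, 4 rose and 2 fell in total RNA and 3 rose and 4 fell in polysome RNA, with medians of 0.17 and -0.17. Sucrose-phosphate synthase 1 (Niben101Scf06678g02006.1), of the path that makes sucrose, went from 32.4 ± 4.57 to 276 ± 8.67 CPM in total RNA and from 54.8 ± 6.64 to 160 ± 21 CPM in polysome RNA. It rose in both (adjusted p = 3.3e-10 and 5.7e-07), and less in polysome RNA (difference -1.54 ± 0.22, adjusted p = 0.00047). The sucrose-phosphate synthase genes Niben101Scf08478g02009.1 and Niben101Scf02024g02010.1 fell in both fractions, with log2 changes of -3.26 ± 0.53 and -2.58 ± 0.45 in total RNA (adjusted p = 9.3e-05 and 0.00018).

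The next step of the pathway was thinly covered by the text match, which misses genes annotated under other names. Of 2 genes with the text of raffinose or stachyose synthase, which use galactinol, 1 was tested. This stachyose synthase homolog (Niben101Scf12159g09011.1) went from 1.19 ± 0.416 to 0.163 ± 0.0782 CPM in total RNA and fell by 2.8 ± 0.68 (adjusted p = 0.0025). In polysome RNA its log2 change of -1.26 ± 0.59 did not pass (adjusted p = 0.082). Alpha-galactosidases split galactose from raffinose sugars and other substrates. Of 7 tested alpha-galactosidase genes, 6 rose and 1 fell in total RNA and 4 rose and 1 fell in polysome RNA, with medians of 1.72 and 1.06. Niben101Scf02913g00014.1 rose by 4.73 ± 0.3 in total RNA, from 0.346 ± 0.158 to 9.51 ± 0.356 CPM (adjusted p = 2.3e-09), and was at least 5.92-fold higher in polysome RNA, where mock libraries held no read above the lowest count. Niben101Scf12011g01017.1 rose by 1.72 ± 0.2 and 2.18 ± 0.22 (adjusted p = 2.9e-06 and 6.2e-07), while the alpha-galactosidase A homolog Niben101Scf07590g07003.1 fell in both fractions (log2 changes -0.66 ± 0.18 and -1.23 ± 0.19, adjusted p = 0.0062 and 5.5e-05).

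Galactinol synthase belongs to family 8 of the glycosyl transferases. Of 61 other tested genes of the family, many of which make pectin, 22 rose and 8 fell in total RNA and 22 rose and 15 fell in polysome RNA, with medians of 0.52 and 0.24. A transferase gene with no closer name (Niben101Scf07437g02007.1) rose by 3.79 ± 0.27 in total RNA (adjusted p = 1.2e-08), and its ratio of heat to mock reads in polysome RNA was 254 (95% counting interval 70 to 2110). Niben101Scf01189g00004.1 fell in both fractions (log2 changes -1.61 ± 0.23 and -1.92 ± 0.23, adjusted p = 2.1e-05 and 3.8e-06), and galacturonosyltransferase 8 (Niben101Scf06956g01012.1), a pectin enzyme, rose by 1.49 ± 0.19 and 1.57 ± 0.19 (adjusted p = 8.1e-06 and 4.2e-06). The changes of both galactinol synthase 1 genes in total RNA, 3.62 and 2.51, lay above the family's median. Niben101Scf07437g02007.1 and Niben101Scf07437g02008.1 of the family lay above both of them there, at 3.79 and 3.987. In polysome RNA the 2 changes, 5.023 and 2.097, were above the median as well. There Niben101Scf07437g02007.1 lay above both, at 6.599, and several others, such as Niben101Scf07437g02008.1 at 4.281, lay above the smaller.

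Among the regulators, 20 of 41 tested heat shock factor genes rose and 5 fell in total RNA, and 22 rose and 4 fell in polysome RNA. Binding proteins of these factors matched the list too. The list's median log2 changes were 0.57 and 0.77. Of 13 tested genes with the text of factor A2, 6 rose and 1 fell in total RNA and 7 rose and 1 fell in polysome RNA. The gene of the list with the highest CPM, Niben101Scf01777g02001.1 of factor A2, went from 5.81 ± 0.263 to 372 ± 3.66 CPM in total RNA and from 8.17 ± 3.06 to 563 ± 68.7 CPM in polysome RNA. It rose by 6.0 ± 0.23 and 6.11 ± 0.24 (adjusted p = 7.4e-12 and 5.7e-12). The A-6b homolog Niben101Scf03923g03003.1 rose by 6.37 ± 0.19 and 6.69 ± 0.19 (adjusted p = 4.7e-13 and 2.5e-13). A second A-6b homolog (Niben101Scf01609g00003.1) held 2 reads above the lowest count in heat total RNA against 54 in mock, and its log2 change in polysome RNA of -1.31 ± 0.59 did not pass (adjusted p = 0.12). The B-4b homolog Niben101Scf08191g00001.1 fell by 1.9 ± 0.31 in polysome RNA (adjusted p = 7.7e-05). DREB factors act on galactinol synthase genes under cold and drought in Arabidopsis. The 1 gene that the list matched (Niben101Scf04158g00002.1) has the text of dehydration-responsive element-binding protein 3. Whether it is a counterpart of those Arabidopsis factors was not tested. This gene fell by 3.75 ± 0.59 in total RNA (adjusted p = 5.8e-05) and held 1 read above the lowest count in heat polysome RNA against 69 in mock.

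Without mock total libraries 6 and 7, of the 22 named list genes called in total RNA 21 stayed called in the same direction and 1, inositol monophosphatase 3, did not. The fitted change moved by over 1.5 times for the inositol oxygenase 1 gene Niben101Scf30621g00001.1, to -5.16, and for the DREB gene Niben101Scf04158g00002.1, to -2.84. In that fit the median log2 change went from 0.3 to 0.66 for inositol synthesis and from 0.07 to 0.36 for UDP-galactose supply. It went from 0.17 to 0.43 for sucrose and sucrose-phosphate synthases and from 1.38 to 1.28 for inositol oxygenases and transporters. Alpha-galactosidases went from 1.72 to 1.69 and other family 8 transferases from 0.52 to 0.56, while heat shock factors stayed at 0.57.

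**Figure D4:**
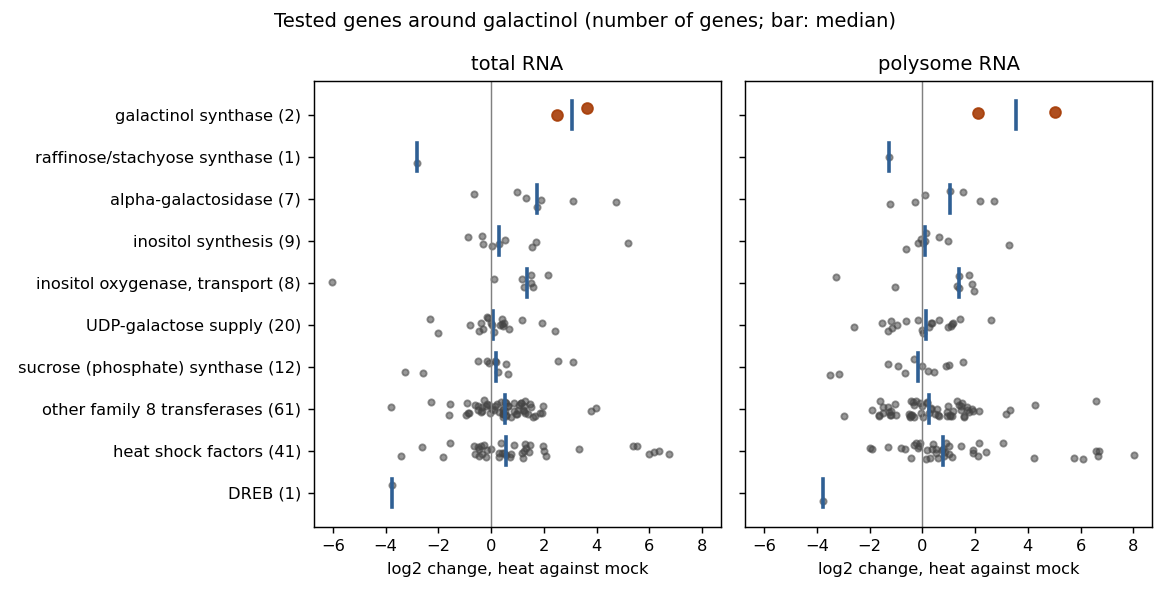
Log2 change of heat against mock for the tested genes of each list, 1 point per gene, in total RNA (left) and polysome RNA (right), with a bar at the median and the number of genes in parentheses; points are jittered vertically. Both galactinol synthase genes lay to the right of 0, with medians of 1.72 for alpha-galactosidases and 0.52 for other family 8 transferases in total RNA.

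Some cell type markers moved with heat as well. Galactinol synthase is known from phloem companion cells of some plants, and 7 phloem and vascular genes summed to 35.3 to 50.5 CPM in mock and 80.8 to 86.3 CPM in heat total RNA. In polysome RNA they summed to 62 to 86.2 CPM in mock and 120 to 180 CPM in heat. None of the 7 was at the lowest count in all libraries of a group. In total RNA, 22 genes with root texts summed to 125 to 127 CPM in mock and 274 to 276 CPM in heat, 104 genes with epidermis and trichome texts to 411 to 453 and 493 to 541 CPM, and 52 genes with seed texts, mostly lipid-transfer proteins, to 462 to 1170 and 263 to 277 CPM. In polysome RNA the root texts summed to 202 to 299 CPM in mock and 460 to 574 CPM in heat, the epidermis texts to 496 to 656 and 645 to 721 CPM, and the seed texts to 521 to 1830 and 575 to 734 CPM. A pair of Agamous-like floral texts summed to 0.381 to 0.769 and 0.183 to 0.4 CPM in total RNA and to 1.9 to 3.52 and 0.317 to 1.23 CPM in polysome RNA. Marker sums too were not compared without the TMM factors. The part of these genes' cell types in the rise of galactinol synthase was not tested.

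The genes whose profile was most like that of Niben101Scf06412g03018.1, the member with the highest mean CPM, were found by Pearson correlation of log2(CPM + 1) over 12 libraries, which share their groups and depth. The first was a gene annotated as soluble pyridine nucleotide transhydrogenase (Niben101Scf03817g05002.1, r = 0.9969), with means of 0.894, 5.89, 0.922 and 10.2 CPM in mock total, heat total, mock polysome and heat polysome RNA. A dynein light chain gene (Niben101Scf04494g00019.1, r = 0.9959), an FtsH protease gene (Niben101Scf04036g04007.1, r = 0.9944), a 30S ribosomal protein S15 gene (Niben101Scf05824g09015.1, r = 0.9931) and a poly [ADP-ribose] polymerase 14 gene (Niben101Scf02398g01001.1, r = 0.9929) followed. These 5 shared the order of group means from heat polysome down to heat total RNA and the mock groups. In heated leaves their log2 differences of polysome against total RNA were 0.79, 1.66, 1.29, 1.06 and 1.44. They were chosen on this profile, so these values are a description with no test. The other galactinol synthase 1 gene, Niben101Scf00687g00006.1, had r = 0.82 with it, and 3554 of 34324 other genes had a higher r.

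**Figure D5:**
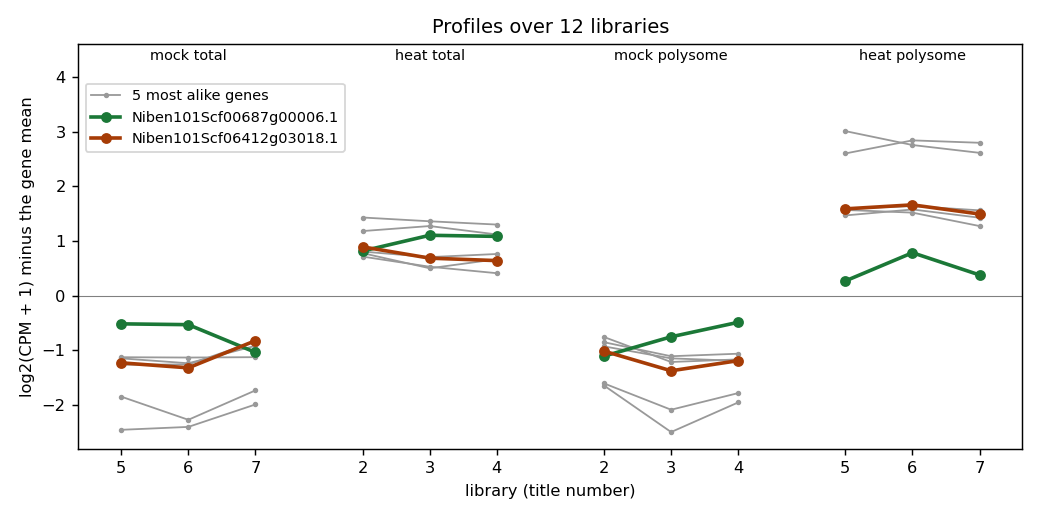
Log2(CPM + 1) minus each gene's mean over 12 libraries, by library, for both tested galactinol synthase genes (coloured) and the 5 genes most like Niben101Scf06412g03018.1 (grey); lines join libraries of a group only to mark a gene. The grey genes and Niben101Scf06412g03018.1 were highest in heat polysome RNA, whereas Niben101Scf00687g00006.1 was highest in heat total RNA.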

How the data were processed

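Leaf RNA of 12 libraries was grouped by treatment and fraction from the sample titles. Tools listed in the submitters' processing notes are HTSeq 0.11.0, HISAT2, DESeq and cutadapt, with their roles unstated, and the build was not given in the sources used here. The counts are deposited as raw data, per the file headers. The signal values are normalized counts, per the file headers; the ratio of deposited count to signal gave 1 scaling factor a library, within a relative 0.00018 of median-of-ratios factors. The log2 values are the authors' fold changes, as the headers state. Only the counts were tested, as deposited. Of the table, 2 lines emptied for this work are not analysed here, and 0 columns lacked a sample.

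Tests used edgeR 4.0.16 in R 4.3.3 over all 34325 genes that passed filterByExpr with a minimum count of 10, with TMM scaling, 1 mean per group over 12 libraries and a Benjamini-Hochberg threshold of 0.05. Of the galactinol synthase genes, 2 of 4 passed the filter. SE is the log2 change divided by the square root of F. On simulated counts for heat against mock in total RNA (33632 genes tested), 42% of 2-fold and 90% of 4-fold changes were recovered. There 200 genes drawn over all levels were changed and the rest were not, so these rates are not those of the low-count members. Nothing beyond the submitters' term says that libraries came from separate plants, so p-values may measure technical spread. Counting intervals, at 95%, and bounds against 3 counts cover counting error only. How reads shared by similar copies were counted is not stated.

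Members and lists were chosen with earlier results of these data known. The family 8 list was also matched on the InterPro column. Each list named its gene of highest mean CPM and, in each fraction, the gene with the smallest adjusted p each way. Alternatives were RLE factors, no filter, a mean of 5 CPM, limma-voom (limma 3.58.1), DESeq2 1.42.0, counts less 1, compared libraries alone, each library left out, 2 mock total libraries left out, members summed, and the title number as a block. The list genes without those 2 libraries, the low-count genes with single polysome libraries left out and the ratio's alternatives were added after seeing the data.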

Additional observations from a re-analysis of the deposited data

How the results depend on the processing

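Over all alternatives that gave values, both tested genes stayed called as higher after heat in each fraction, with log2 changes of 3.25 to 4.51 and 2.22 to 2.72 in total RNA for Niben101Scf06412g03018.1 and Niben101Scf00687g00006.1 and of 4.55 to 5.77 and 1.8 to 2.44 in polysome RNA (adjusted p of at most 0.0029). For polysome against total RNA at 37 °C, Niben101Scf06412g03018.1 kept 0.93 to 1.09 (adjusted p 0.00039 to 0.045). For Niben101Scf00687g00006.1 it ran from -0.88 to -0.51 (adjusted p 0.015 to 0.25). In polysome RNA, 4 members (3 higher, 1 lower) were called for heat without a filter and 4 without mock total libraries 6 and 7, where the filter let all 4 be tested, and 1 for polysome against total RNA at 23 °C without a filter. With the compared libraries alone, 2 (1 higher, 1 lower) were called for polysome against total RNA at 37 °C, where 34.6% of all genes were higher and 36.3% lower. The summed level's log2 ratio in total RNA was 3.11 with counts less 1. At 23 °C the uncalled differences between fractions changed sign, to 0.48 without mock total library 7, 0.09 without mock polysome library 3 and 0.17 without mock total libraries 6 and 7 for Niben101Scf06412g03018.1, and to 0.08 without mock polysome library 2 for Niben101Scf00687g00006.1, with ranges over single libraries left out of -1.03 to 0.48 and -0.55 to 0.08; the cause was not tested. The title number could serve as a replicate block only for the mean heat effect. There changes were 4.34 (adjusted p = 1.4e-07) and 2.33 (adjusted p = 4.7e-06), and both genes stayed called. Same-numbered libraries did not deviate together from their group means (r of -0.058 to 0.0073). With group means removed, this check cannot see a shift between the ranges of title numbers. With a mean of at least 5 CPM no member was left to test. Of the 18436 genes then tested, against 34325 in the main fit, 11499 were called in total RNA and 11948 in polysome RNA. All genes called for the difference of heat effects went from 6393 to 2434 without mock total libraries 6 and 7 and to 4150 to 4234 without 1 heat total library. Depth limits the mock groups, where members had few reads above the lowest count.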
